A study of Mus musculus with 8 samples.

Results

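The 40 genes described here encode the T cell receptor complex, the proteins that signal from it, cytotoxic effectors, NK type receptors, coreceptors and costimulatory receptors, cytokine receptors and T cell cytokines. They were chosen by name for these functions and found by Ensembl identifier, through the GENCODE M21 annotation on GRCm38 (mm10), among the 55487 genes of the count files. RNA was sequenced from the back skin epidermis of wild-type FVB mice, with 2 libraries in each of 4 groups. An age of 7 to 8 weeks is given for all 4 groups. The treated groups were harvested on different days, so it is not taken here as the age at harvest. The DMBA/TPA group received a single 100 µl application of the carcinogen DMBA at 1 mg/ml in acetone, then the phorbol ester TPA at 0.1 mg/ml 2 times per week, and was harvested on day 52. The Control DMBA TPA group is its acetone-treated counterpart. The DMBA group received the same single DMBA application without TPA and was harvested on day 10, and the Control DMBA group is its acetone-treated counterpart. The labels give no harvest day for the acetone groups and leave unsaid whether the paired libraries were made from different mice. The p-values therefore reflect the spread among libraries alone, and that spread may be technical. Of the 40 genes, 36 had enough counts to be tested, and Sh2d1a, Gzma, Il17a and Ifng did not.

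T cells recognise antigen through a receptor of paired alpha and beta or gamma and delta chains, which is held at the surface by the CD3 and zeta subunits and signals through the kinases Lck and Zap70 and the adaptor Lat. Mouse epidermis houses dendritic epidermal T cells, a resident gamma delta population with an almost uniform receptor, built from the V segments Trdv4 and Tcrg-V5, that carries NK type receptors and cytotoxic proteins. Conventional alpha beta T cells, marked by the coreceptors CD4 and CD8, circulate and enter skin during inflammation.

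The libraries held 26300400 to 36002886 gene counts. Values are CPM, gene counts scaled to a common library total, on TMM-scaled library sizes, and fold changes, SE and adjusted p come from the quasi-likelihood test of edgeR across 19450 genes with Benjamini-Hochberg adjustment. A gene is called here at an adjusted p under 0.05, and "rose" and "fell" are used only of called genes. Changes given without a unit are log2 fold changes. The 2 DMBA/TPA libraries stood further from each other than those of the other groups, with a chi-square over degrees of freedom of 65.3, against 11 in Control DMBA TPA, 13.5 in DMBA and 32.1 in Control DMBA. In whole epidermis, fewer cells of a type and less RNA per cell cannot be told apart.

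In DMBA/TPA epidermis, the T cell receptor complex with its delta chain, perforin and several NK type receptors fell, while the coreceptors Cd4 and Cd8a and several costimulatory receptors and regulators of conventional T cells rose. Of the 36 tested members, 18 fell and 10 rose relative to Control DMBA TPA, and 8 did neither. The background was high, since 18.3% of all 19450 genes fell and 22.4% rose in this comparison, 40.7% in all. The share of members that rose was thus near that of all genes, whereas the share that fell was above that of all genes. Both DMBA/TPA libraries lay below both Control DMBA TPA libraries for 22 of the 36 tested members (61.1%) and above both for 11 (30.6%), beside 37.3% and 37.6% of all genes tested. The median log2 fold change of the tested members was -0.86, beside -0.003 over all genes. The members that fell ranged from Itgae at -0.56 to Trdv4 at -5.31 on the log2 scale. The largest fitted rise among members with counts in every library was that of Cd8a at 5.29.

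**Figure D1:**
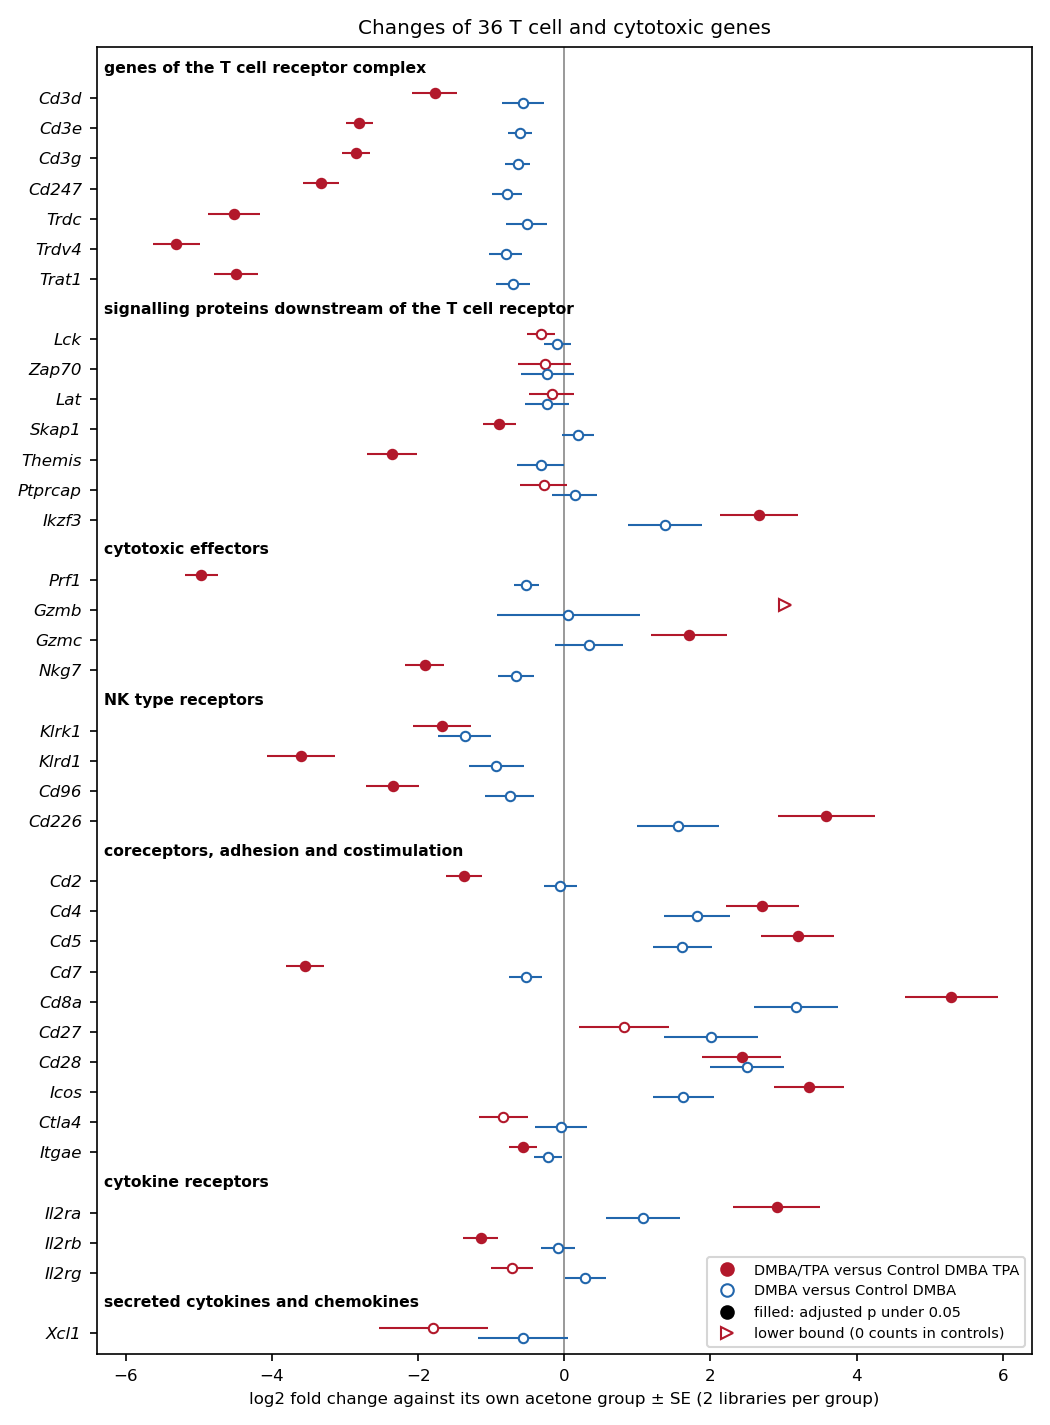
Log2 fold changes of the 36 tested members against their own acetone group, with SE, by role. Red points are DMBA/TPA against Control DMBA TPA and blue points are DMBA against Control DMBA, filled where the adjusted p was under 0.05. The open triangle is the lower bound for Gzmb, which had 0 counts in Control DMBA TPA. The 7 genes of the receptor complex lie left of 0 in red, and no blue point is filled.

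All 7 genes of the receptor complex fell in DMBA/TPA: 2 segments of the delta chain, the 4 CD3 and zeta genes and the adaptor gene Trat1. Trdv4, the delta V segment of the dendritic epidermal T cell receptor (chromosome 14, 54074905 to 54075515, plus strand), had 0.118 and 0.117 CPM in the DMBA/TPA libraries, against 4.81 and 4.81 CPM in the Control DMBA TPA libraries. In counts these were 3 and 3 against 138 and 175, so the DMBA/TPA level rests on 6 counts. Its log2 fold change was -5.31 (SE 0.33, adjusted p = 0.000205, edgeR). Trdc, the delta constant gene (chromosome 14, 54142851 to 54148868, plus strand), had 1.10 and 0.392 CPM in DMBA/TPA, against 19.1 and 15.4 CPM in Control DMBA TPA. Both DMBA/TPA libraries lay far below both controls, although the ratio between them was larger than that between the controls. The fall of Trdc was -4.52 (SE 0.36, adjusted p = 0.000325, edgeR), and -5.44 without DMBA/TPA replicate 1, which held 28 of its 38 DMBA/TPA counts.

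The CD3 genes lie together on chromosome 9, with Cd3g and Cd3d facing away from each other 1354 bases apart and Cd3e 11400 bases beyond Cd3d. Cd3e, the epsilon signalling subunit, had 4.95 and 4.78 CPM in DMBA/TPA, against 34.2 and 33.8 CPM in Control DMBA TPA. Cd3g, the gamma subunit of CD3, had 2.83 and 2.66 CPM in DMBA/TPA, against 20.6 and 19.2 CPM in Control DMBA TPA. Cd3d, the delta subunit of CD3, had 1.30 and 1.68 CPM in DMBA/TPA, against 5.05 and 5.16 CPM in Control DMBA TPA. Both DMBA/TPA libraries lay below both Control DMBA TPA libraries for all 3 genes, as for 37.3% of all genes tested. The falls were -2.81 for Cd3e, -2.85 for Cd3g and -1.77 for Cd3d. Cd247, the zeta chain that carries most of the signalling motifs of the complex, fell by 3.32 on the log2 scale (SE 0.25, adjusted p = 0.000306, edgeR), with 0.747 and 0.822 CPM in DMBA/TPA, against 7.81 and 7.96 CPM in Control DMBA TPA. Of the 50-base windows of its annotated transcripts, 55.9% also occur in another gene, mainly Pou2f1 on the opposite strand, so its counts are less certain. Trat1, an adaptor that associates with the receptor complex, had 0.550 and 0.313 CPM in DMBA/TPA, against 8.92 and 10.6 CPM in Control DMBA TPA and fell by 4.49 on the log2 scale (SE 0.30, edgeR adjusted p = 0.000213).

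The V segments are shown because they identify the resident receptor, and no 50-base window of either occurs in the transcripts of another annotated gene. Each line gives the last 120 bases of the coding sequence of the germline segment from the GENCODE M21 transcripts, 5′ to 3′, for Trdv4 at chr14:54074905-54075515 and Tcrg-V5 at chr13:19192278-19192725, both on the plus strand of GRCm38. The capitals mark the cysteine codon that follows a pair of tyrosine codons, close to the end that joins the next segment.
Trdv4: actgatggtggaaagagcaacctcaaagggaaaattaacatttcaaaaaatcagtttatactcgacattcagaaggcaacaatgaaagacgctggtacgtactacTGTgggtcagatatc
Tcrg-V5: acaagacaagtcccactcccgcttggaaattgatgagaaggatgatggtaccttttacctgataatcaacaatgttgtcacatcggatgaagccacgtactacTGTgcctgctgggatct
Tcrg-V5, the gamma V segment of the same receptor and not among the 40 genes, averaged 0.137 ± 0.0836 CPM in DMBA/TPA and 2.71 ± 0.259 CPM in Control DMBA TPA (SD, n = 2 each), with a log2 fold change of -4.26 (SE 0.45, adjusted p = 0.000669, edgeR). The falls of Trdv4, Tcrg-V5 and Trdc, at -5.31, -4.26 and -4.52, were not tested against each other.

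Outside the members, gamma chain genes fell and the alpha constant gene rose. Of 13 listed chain and constant genes outside the members, 12 were in the files and 7 could be tested, of which 4 fell, 1 rose and 2 were not called in DMBA/TPA. The gamma constant genes Tcrg-C1, Tcrg-C4 and Tcrg-C2 fell by 4.06, 3.41 and 2.32 on the log2 scale. Windows of Tcrg-C1 are shared with other gamma constant genes for 34.2% of its length, so counts could be split among them. Trac, the alpha constant gene, rose by 2.49 (SE 0.64, adjusted p = 0.0161, edgeR), with averages of 1.04 ± 0.419 CPM in DMBA/TPA and 0.176 ± 0.101 CPM in Control DMBA TPA (SD, n = 2 each). The beta constant genes were not called, Trbc1 at 0.52 (adjusted p = 0.108, edgeR) and Trbc2 at 0.34 (adjusted p = 0.0992, edgeR).

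The share of Trdc in the summed Trdc and Trac counts compares the delta and alpha constant genes within each library, without reference to library size. It was 45.2% (28 of 62 counts, 95% Wilson interval 33.4% to 57.5%) and 34.5% (10 of 29, 19.9% to 52.7%) in the DMBA/TPA libraries. In the Control DMBA TPA libraries it was 99.5% (548 of 551, 98.4% to 99.8%) and 98.4% (559 of 568, 97.0% to 99.2%). In the DMBA libraries it was 88.0% (256 of 291, 83.7% to 91.2%) and 94.6% (296 of 313, 91.5% to 96.6%), and in the Control DMBA libraries 96.5% and 96.6%. Both libraries of each treated group lay below both of their controls. The intervals cover counting error only, and with 2 libraries per group an exact permutation test cannot give a two-sided p below 0.333, so no test was made. Per merged exon length, which need not be the length expressed, the Trdc share was 16.6% and 11.3% in DMBA/TPA, against 97.8% and 93.8% in Control DMBA TPA.

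**Figure D2:**
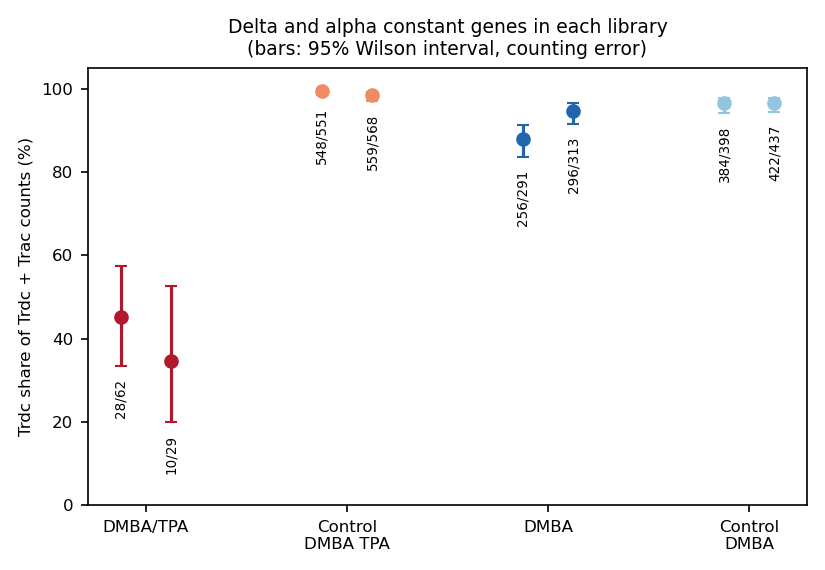
Share of the delta constant gene Trdc in the summed counts of Trdc and the alpha constant gene Trac, in percent, in each library of the 4 groups. Bars are 95% Wilson intervals and the numbers are the Trdc counts over the summed counts. The DMBA/TPA libraries lie at 45.2% and 34.5%, and the other 6 libraries at 88.0% or above.

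Among the signalling proteins, the proximal kinases and adaptor were not called, whereas the 7 genes of the receptor complex were. Lck, the kinase that phosphorylates the CD3 and zeta chains, had 4.72 and 4.70 CPM in DMBA/TPA, against 5.79 and 5.93 CPM in Control DMBA TPA. Its log2 fold change was -0.32 (SE 0.19, adjusted p = 0.216, edgeR). Zap70, the kinase recruited to the phosphorylated chains, was at -0.27 (SE 0.37, adjusted p = 0.584, edgeR), and Lat, the adaptor that it phosphorylates, at -0.17 (SE 0.31, adjusted p = 0.685, edgeR), with overlapping groups for both. Ptprcap, a protein associated with the phosphatase CD45, was at -0.28 (adjusted p = 0.501, edgeR), and 93.9% of its windows are shared with the overlapping genes Coro1b and Rps6kb2. Themis, an adaptor needed for T cell selection in the thymus, had 1.53 and 0.900 CPM in DMBA/TPA, against 6.62 and 5.85 CPM in Control DMBA TPA, and fell by 2.35 on the log2 scale (SE 0.34, adjusted p = 0.00204, edgeR). Skap1, an adaptor that couples the receptor to integrin adhesion, fell by 0.89 (SE 0.23, adjusted p = 0.0169, edgeR). That call was lost on leaving out Control DMBA TPA replicate 1 or 2 or DMBA/TPA replicate 2. Ikzf3, the transcription factor Aiolos, rose by 2.67 (SE 0.54, adjusted p = 0.00644, edgeR), with 3.15 and 4.07 CPM in DMBA/TPA, against 0.244 and 0.852 CPM in Control DMBA TPA. Its 2 control libraries differed, and the rise was 2.08 without Control DMBA TPA replicate 1 and 3.86 without replicate 2. Sh2d1a, an adaptor of the SLAM receptors, had 2 and 2 counts in DMBA/TPA and 0 in both Control DMBA TPA libraries, which was too few to test.

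The cytotoxic effectors split between perforin and the granzymes. Prf1, the pore-forming protein perforin (chromosome 10, 61297833 to 61304680, plus strand), had 0.511 and 0.470 CPM in DMBA/TPA, against 15.1 and 15.8 CPM in Control DMBA TPA. Its change of -4.96 (SE 0.23, adjusted p = 7.53e-05, edgeR) had the smallest adjusted p of the 36 tested members. Nkg7, a cytotoxic granule membrane protein, fell by 1.91 on the log2 scale (SE 0.27, adjusted p = 0.0018, edgeR), with 1.73 and 2.15 CPM in DMBA/TPA, against 6.52 and 8.05 CPM in Control DMBA TPA. The granzymes are serine proteases that enter target cells through the perforin pore, and Gzmc and Gzmb lie 24181 bases apart on chromosome 14. Gzmc had 3.58 and 1.57 CPM in DMBA/TPA, against 0.801 and 0.769 CPM in Control DMBA TPA, and rose by 1.71 (SE 0.52, adjusted p = 0.0318, edgeR). Only 4.14% of its windows are shared with Gzmd, Gzme or Gzmg. The Gzmc call was lost without DMBA/TPA replicate 1 (change 1.00, adjusted p = 0.167, edgeR) and without either Control DMBA TPA library. Against Control DMBA, with 3.37 and 1.91 CPM, the change of Gzmc was -0.04. Gzmb had 7 and 12 counts in DMBA/TPA and 0 in both Control DMBA TPA libraries, which makes it at least 8.09-fold higher when 3 counts are put in the place of the control sum (adjusted p = 0.0289, edgeR). That call was lost without either Control DMBA TPA library or without DMBA/TPA replicate 2, and Control DMBA held 1 and 13 counts. Gzma had 1 and 0 counts in DMBA/TPA and 0 in the other 6 libraries.

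Of the 4 NK type receptors, 3 fell and 1 rose. Klrd1, which encodes CD94, the partner chain of NKG2 receptors, had 0.236 and 0.352 CPM in DMBA/TPA, against 4.11 and 3.16 CPM in Control DMBA TPA. It fell by 3.61 on the log2 scale (SE 0.47, adjusted p = 0.00129, edgeR). Klrk1, which encodes NKG2D, a receptor for stress-induced ligands on keratinocytes, lies 11547 bases from Klrd1 and fell by 1.67 (SE 0.40, adjusted p = 0.0119, edgeR). Klrk1 had 0.590 and 0.705 CPM in DMBA/TPA, against 2.23 and 1.92 CPM in Control DMBA TPA, and its call was lost without Control DMBA TPA replicate 1. Cd96 and Cd226 encode competing receptors for nectin-family ligands, the first mainly inhibitory and the second activating. Cd96 had 1.26 and 0.900 CPM in DMBA/TPA, against 6.10 and 4.94 CPM in Control DMBA TPA, and fell by 2.35 (SE 0.36, adjusted p = 0.00241, edgeR). Cd226 had 17 and 23 counts in DMBA/TPA, against 2 and 2 in Control DMBA TPA, and rose by 3.59 (SE 0.66, adjusted p = 0.00461, edgeR). The defining markers of NK cells themselves were near 0, with a summed level over 4 genes of 0.236 and 0.352 CPM in DMBA/TPA, and 0.0697 and 0.357 CPM in Control DMBA TPA, where Ncr1, Eomes and Klra8 were at 0.

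Both coreceptors and several costimulatory receptors of conventional T cells rose, and their control levels were low. Cd8a, the alpha chain of CD8 (chromosome 6, 71373427 to 71379173, plus strand), had 1.57 and 3.56 CPM in DMBA/TPA, against 0.0697 and 0.0549 CPM in Control DMBA TPA. In counts these were 40 and 91 against 2 and 2, and the change was 5.29 (SE 0.63, adjusted p = 0.000975, edgeR), or 4.59 without DMBA/TPA replicate 2. Cd4, the coreceptor of helper and regulatory T cells, had 1.34 and 1.76 CPM in DMBA/TPA, against 0.314 and 0.165 CPM in Control DMBA TPA, and rose by 2.71 (SE 0.50, adjusted p = 0.00468, edgeR). Cd5, a scavenger family receptor that restrains receptor signalling in alpha beta T cells, had 1.49 and 1.60 CPM in DMBA/TPA, against 0.0697 and 0.247 CPM in Control DMBA TPA. Its rise was 3.19 (SE 0.50, adjusted p = 0.00263, edgeR) and 4.39 without Control DMBA TPA replicate 2. Both DMBA/TPA libraries lay above both Control DMBA TPA libraries for Cd8a, Cd4 and Cd5, as for 37.6% of all genes tested. All 3 control levels rested on at most 9 counts in a library.

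Cd28, Ctla4 and Icos lie in this order on chromosome 1, 113640 and 62094 bases apart, with no other protein-coding gene between them. Icos, an inducible costimulatory receptor, had 3.26 and 4.42 CPM in DMBA/TPA, against 0.174 and 0.549 CPM in Control DMBA TPA, and rose by 3.35 (SE 0.48, adjusted p = 0.00187, edgeR), or 4.43 without Control DMBA TPA replicate 2. Cd28, the main costimulatory receptor of naive T cells, had 14 and 12 counts in DMBA/TPA, against 2 and 4 in Control DMBA TPA, and rose by 2.43 (SE 0.54, adjusted p = 0.00938, edgeR), a call lost without Control DMBA TPA replicate 1. Ctla4, the inhibitory receptor for the same ligands as CD28, was not called, at -0.83 (SE 0.33, adjusted p = 0.0773, edgeR), with 1.26 and 1.64 CPM in DMBA/TPA, against 2.68 and 2.50 CPM in Control DMBA TPA. Both DMBA/TPA libraries lay above both Control DMBA TPA libraries for the outer genes of this cluster and below them for the middle gene. Of all genes tested, 37.6% lay above in this way and 37.3% below. For Ctla4 this depended on the control, since Control DMBA had 0.674 and 1.17 CPM, below both DMBA/TPA libraries.

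Among the remaining surface receptors, Cd7, Cd2 and Itgae fell. Cd7, an immunoglobulin family receptor of T and NK cells, fell by 3.55 on the log2 scale (SE 0.26, adjusted p = 0.00031, edgeR), with 1.06 and 1.60 CPM in DMBA/TPA, against 15.5 and 15.7 CPM in Control DMBA TPA. Cd2, an adhesion receptor, fell by 1.37 (SE 0.25, adjusted p = 0.00431, edgeR), with 1.02 and 1.06 CPM in DMBA/TPA, against 2.68 and 2.72 CPM in Control DMBA TPA. Itgae, the integrin alpha chain CD103 that binds E-cadherin on keratinocytes, had 15.2 and 16.3 CPM in DMBA/TPA, against 24.1 and 22.4 CPM in Control DMBA TPA. Its change of -0.56 (SE 0.19) passed only narrowly at an adjusted p of 0.0444 by edgeR, and was lost on leaving out any of the 4 libraries compared. The members just past the threshold on the other side were Ctla4, at an adjusted p of 0.0773, and Il2rg, at 0.078, by edgeR. Cd27, a costimulatory receptor of the tumour necrosis factor receptor family, was at 0.82 (SE 0.62, adjusted p = 0.311, edgeR).

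**Figure D3:**
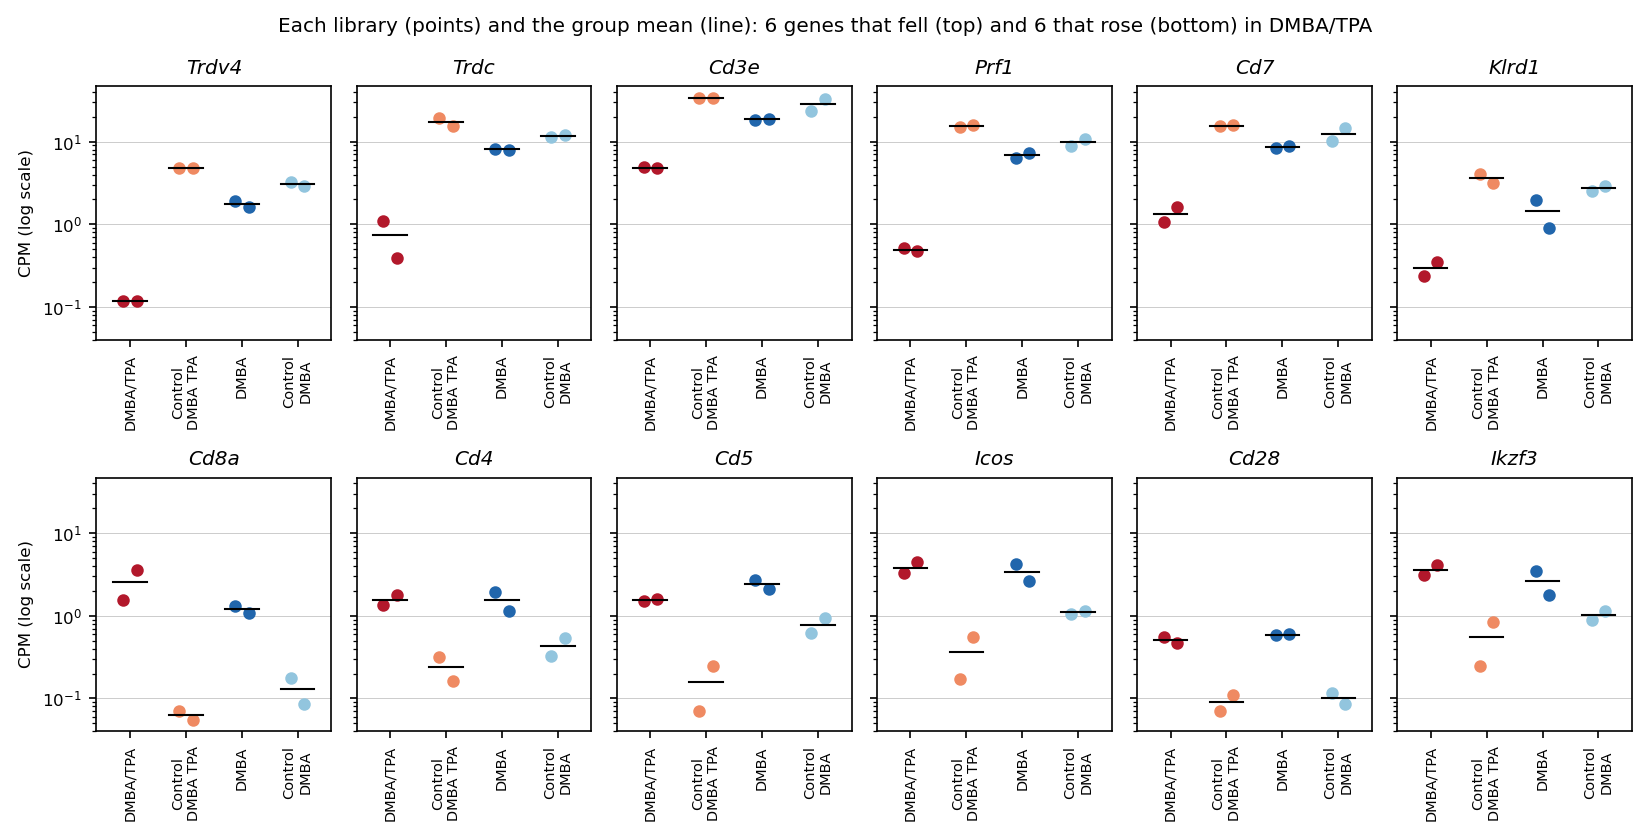
CPM on a log scale in each library (points) with the group mean (line) for 6 members that fell and 6 that rose in DMBA/TPA. In the upper row both DMBA/TPA points lie below all 6 other libraries. In the lower row both DMBA/TPA points lie above both Control DMBA TPA points, and both DMBA points lie above both Control DMBA points.

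Of the 3 subunits of the interleukin-2 receptor, Il2ra rose, Il2rb fell and Il2rg was not called. Il2ra, the high-affinity alpha chain CD25, had 1.77 and 2.47 CPM in DMBA/TPA, against 0.348 and 0.220 CPM in Control DMBA TPA, and rose by 2.90 (SE 0.60, adjusted p = 0.00713, edgeR), a call lost without Control DMBA TPA replicate 2. Il2rb, the beta chain shared with the interleukin-15 receptor, had 4.95 and 5.91 CPM in DMBA/TPA, against 10.0 and 14.0 CPM in Control DMBA TPA, and fell by 1.15 on the log2 scale (SE 0.24, adjusted p = 0.00776, edgeR), a call also lost without Control DMBA TPA replicate 2. Il2rg, the common gamma chain, was not called at -0.72 (SE 0.29) except without DMBA/TPA replicate 1, and 27.5% of its windows are shared with Gm20489. Among the secreted members, Xcl1, a chemokine of activated T cells, had 16 and 1 counts in DMBA/TPA, against 23 and 55 in Control DMBA TPA. Its change of -1.79 (SE 0.75, adjusted p = 0.0867, edgeR) was not called, but was without DMBA/TPA replicate 1. Il17a, the signature cytokine of interleukin-17-producing T cells, had 2 and 7 counts in DMBA/TPA and 0 in the other 6 libraries, and Ifng, the cytokine interferon gamma, had 3 and 3 counts in DMBA/TPA and 0 in both Control DMBA TPA libraries. Over a floor of 3 counts, these are at least 3.83-fold and 2.55-fold higher, and neither was tested.

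Promoter sequence is shown for members that moved in each direction in DMBA/TPA: the divergent pair Cd3g and Cd3d and Prf1, which fell, and Cd5 and Cd8a, which rose. Each line is the 250 bases before the annotated start from RefSeq on GRCm38.p6, 5′ to 3′ on the strand of the gene. Cd3g is at chr9:44980432-44980681 on the minus strand, Cd3d at chr9:44981536-44981785 on the plus strand, Prf1 at chr10:61297586-61297835 on the plus strand, Cd5 at chr19:10738975-10739224 on the minus strand and Cd8a at chr6:71373177-71373426 on the plus strand. Capitals mark matches on either strand to 3 motifs: TGTGGT of RUNX factors, AGGAAG of ETS factors and CAGGTG of E-box-binding factors, all families with members that act in T cells.
Cd3g: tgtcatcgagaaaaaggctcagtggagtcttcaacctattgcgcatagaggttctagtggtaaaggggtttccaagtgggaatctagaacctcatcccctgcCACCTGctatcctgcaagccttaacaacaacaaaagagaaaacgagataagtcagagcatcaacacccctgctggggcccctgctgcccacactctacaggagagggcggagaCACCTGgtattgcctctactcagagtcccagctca
Cd3d: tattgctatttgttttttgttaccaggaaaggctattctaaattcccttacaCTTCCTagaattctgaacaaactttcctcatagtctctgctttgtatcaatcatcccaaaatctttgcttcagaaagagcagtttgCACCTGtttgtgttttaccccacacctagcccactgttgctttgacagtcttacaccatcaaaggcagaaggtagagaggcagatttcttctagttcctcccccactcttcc
Prf1: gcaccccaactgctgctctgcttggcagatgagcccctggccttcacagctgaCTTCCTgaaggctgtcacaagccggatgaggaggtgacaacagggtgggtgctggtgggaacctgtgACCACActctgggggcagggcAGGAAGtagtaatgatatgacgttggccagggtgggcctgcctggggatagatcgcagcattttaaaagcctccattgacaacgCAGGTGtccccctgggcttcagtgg
Cd5: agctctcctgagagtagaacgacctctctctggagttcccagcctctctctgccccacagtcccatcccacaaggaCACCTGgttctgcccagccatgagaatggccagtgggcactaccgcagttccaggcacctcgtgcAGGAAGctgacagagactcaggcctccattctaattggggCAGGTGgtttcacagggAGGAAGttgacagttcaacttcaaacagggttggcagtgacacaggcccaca
Cd8a: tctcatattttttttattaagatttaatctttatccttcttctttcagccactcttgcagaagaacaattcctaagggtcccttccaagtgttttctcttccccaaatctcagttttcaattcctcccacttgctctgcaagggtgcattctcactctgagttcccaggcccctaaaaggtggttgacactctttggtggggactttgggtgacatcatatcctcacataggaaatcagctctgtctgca
Prf1 holds matches to all 3 motifs, Cd3d and Cd5 to ETS and E-box, Cd3g to the E-box alone with 2 copies, and Cd8a to none. Of the 40 members, 25 had a promoter in the table. The RUNX letters were in 5 of 10 members that fell and 2 of 5 that rose, beside 14.0% of all 32851 promoters of this length. The ETS letters were in 5 of 10 and 3 of 5, beside 29.5%, and the E-box letters in 4 of 10 and 1 of 5, beside 17.2%. These are matches of letters in the window and were not tested.

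After DMBA alone, no member passed the test against Control DMBA over all genes, although several coreceptor and costimulatory receptor genes lay well above their controls in both libraries. With edgeR, 0 of 36 tested members fell and 0 rose, beside 0.0771% and 0.19% of all genes. At an unadjusted p under 0.05, 10 were lower and 8 higher by edgeR, 18 of 36 in all, beside 9.43% of all genes. DESeq2 called 0 lower and 2 higher, Cd8a and Icos, beside 2.2% of all genes, and limma voom called none, beside 0.237%. Both DMBA libraries lay below both Control DMBA libraries for 14 of the 36 tested members and above both for 8, beside 20.2% and 19.1% of all genes tested. These counts of calls depended on the control, since with Control DMBA TPA in place of Control DMBA 12 members were lower and 9 higher, when 16.5% of all genes were called.

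Cd8a had 1.32 and 1.09 CPM in DMBA, against 0.176 and 0.0855 CPM in Control DMBA. The change was 3.17 (SE 0.57, adjusted p = 0.0866, edgeR), with both DMBA libraries above both controls. Cd28 had 18 and 22 counts in DMBA, against 4 and 3 in Control DMBA, a change of 2.50 (SE 0.51, adjusted p = 0.12, edgeR). Cd4 had 1.94 and 1.14 CPM in DMBA, against 0.322 and 0.541 CPM in Control DMBA, a change of 1.82 (SE 0.45, adjusted p = 0.182, edgeR). Icos was at 1.63 (adjusted p = 0.193, edgeR), Cd5 at 1.62 (adjusted p = 0.178, edgeR) and Cd27 at 2.01 (adjusted p = 0.319, edgeR), each with both DMBA libraries above both controls. Outside the members, Trac was at 0.905 (adjusted p = 0.758, edgeR) and Cd8b1 at 4.11 (adjusted p = 0.328, edgeR), also above both controls. The beta constant gene Trbc1 was at -0.19 (adjusted p = 0.95, edgeR), below both controls. Trbc2 was at 0.07 (adjusted p = 0.982, edgeR), with overlapping groups.

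No gene of the receptor complex was called after DMBA, and the values of all 7 were below 0. Cd3e had 18.3 and 18.9 CPM in DMBA, against 23.3 and 33.2 CPM in Control DMBA, a change of -0.60 (SE 0.17, adjusted p = 0.225, edgeR). Trdv4 had 1.91 and 1.60 CPM in DMBA, against 3.22 and 2.88 CPM in Control DMBA, a change of -0.80 (SE 0.23, adjusted p = 0.241, edgeR). Prf1 had 6.43 and 7.34 CPM in DMBA, against 8.82 and 10.9 CPM in Control DMBA, a change of -0.52 (SE 0.17, adjusted p = 0.348, edgeR). Klrk1 was at -1.36 (SE 0.37, adjusted p = 0.216, edgeR), with 1.13 and 0.734 CPM in DMBA, against 1.73 and 3.05 CPM in Control DMBA. Of the 18 members that fell in DMBA/TPA, 17 had a value below 0 after DMBA, with a median of -0.59, and of the 10 that rose, 10 had a value above 0, up to 3.17. Over all genes, 73.3% of the 3561 that fell had a value below 0 after DMBA and 64.1% of the 4356 that rose had one above 0. These 2 comparisons share no library.

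The difference between the responses, the DMBA/TPA change minus the DMBA change, was called lower for 11 members and higher for 0, beside 3.95% and 8.7% of all genes. Trdv4 differed by -4.51 (SE 0.41, adjusted p = 0.00246, edgeR), Prf1 by -4.45 (SE 0.29, adjusted p = 0.00173, edgeR) and Trdc by -4.01 (SE 0.45, adjusted p = 0.00385, edgeR), or -4.92 without DMBA/TPA replicate 1. For Cd8a the difference was 2.13 (SE 0.97, adjusted p = 0.169, edgeR), for Cd4 0.89 (SE 0.68, adjusted p = 0.395, edgeR) and for Cd28 -0.07 (SE 0.85, adjusted p = 0.967, edgeR). No difference was thus called for the coreceptor genes, and edgeR, DESeq2 and limma voom each called 0 members higher. At an unadjusted p under 0.05 the members higher were 4 by edgeR, 3 by DESeq2 and 3 by limma voom, beside 18.7%, 17.7% and 18.2% of all genes. For Klrk1, which fell in DMBA/TPA, the difference was -0.31 (SE 0.54, adjusted p = 0.724, edgeR).

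Set directly against DMBA, DMBA/TPA had 14 members lower and 0 higher, beside 5.67% and 8.9% of all genes. These groups differ in TPA and in harvest day, which cannot be told apart, and they share the DMBA/TPA and DMBA libraries with the comparisons above. The 7 genes of the receptor complex, Skap1, Prf1, Nkg7, Klrd1, Cd2, Cd7 and Il2rb were lower. Prf1 had 0.511 and 0.470 CPM in DMBA/TPA, against 6.43 and 7.34 CPM in DMBA, a change of -3.80 (SE 0.23, adjusted p = 0.000194, edgeR). Icos had 3.26 and 4.42 CPM in DMBA/TPA, against 4.20 and 2.64 CPM in DMBA, with overlapping groups and a change of 0.17 (SE 0.39, adjusted p = 0.793, edgeR). Cd4 was at 0.02 (SE 0.41, adjusted p = 0.984, edgeR) and Cd28 at -0.21 (SE 0.42, adjusted p = 0.769, edgeR). Cd8a had the largest positive change, at 1.09 (SE 0.435, adjusted p = 0.126, edgeR), and was not called. It had 1.57 and 3.56 CPM in DMBA/TPA, against 1.32 and 1.09 CPM in DMBA. Both DMBA/TPA libraries thus lay above both DMBA libraries, as for 29.5% of all genes tested. DESeq2 and limma voom also called 0 members higher. At an unadjusted p under 0.05 the members higher were 1 by edgeR, 0 by DESeq2 and 1 by limma voom, beside 17.2%, 16.9% and 16.9% of all genes. The count of lower members was 8 without DMBA replicate 1 and 9 without DMBA replicate 2, when 3.45% and 2.27% of all genes were called in place of 14.6%. Cd3d, Skap1, Nkg7, Cd2 and Il2rb were not called without either library and Klrd1 not without replicate 1, where its change of -2.26 was -1.59. The count was 10 without DMBA/TPA replicate 2, when 6.76% of all genes were called.

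Between the acetone groups Control DMBA TPA and Control DMBA, members were called at about the rate of all genes. Of the 36 tested, 1 was lower and 1 higher, beside 4.28% and 1.97% of all genes, 6.25% in all, and DESeq2 called 3 lower and 2 higher, beside 10.8% of all genes. At an unadjusted p under 0.05 edgeR had 10 of the 36, or 27.8%, beside 25.6% of all genes. Cd5 was lower, with 0.0697 and 0.247 CPM in Control DMBA TPA, against 0.615 and 0.940 CPM in Control DMBA, a change of -2.20 (SE 0.52, adjusted p = 0.0456, edgeR), or -3.40 without Control DMBA TPA replicate 2. Ctla4 was higher, with 2.68 and 2.50 CPM in Control DMBA TPA, against 0.674 and 1.17 CPM in Control DMBA, a change of 1.49 (SE 0.34, adjusted p = 0.0415, edgeR). Both calls were lost on leaving out any 1 of the 6 libraries other than DMBA/TPA. The choice of control mattered for the rises: with Control DMBA in place of Control DMBA TPA, 6 members rose and 16 fell in DMBA/TPA, when 19.4% of all genes were called in place of 40.7%, and the rises of Gzmb, Gzmc, Cd5 and Il2ra were not called.

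Genes of the same pathways outside the 40 members are counted next, and each count is to be read beside the 18.3% of all genes that fell and the 22.4% that rose. Of 24 listed receptor signalling genes, all tested, 7 fell and 4 rose in DMBA/TPA. Ptprc, the phosphatase CD45 of all leukocytes, averaged 22.6 ± 1.65 CPM in DMBA/TPA and 55.5 ± 8.67 CPM in Control DMBA TPA (SD, n = 2 each) and fell by 1.30 on the log2 scale (SE 0.15, edgeR adjusted p = 0.000906), and Grap2, an adaptor, fell by 1.53. Ubash3a, a negative regulator of receptor signalling, rose by 4.94 (SE 0.56, adjusted p = 0.000845, edgeR), and Cd6, a receptor related to CD5, by 3.50 (SE 0.48, adjusted p = 0.00158, edgeR). Cd6 averaged 3.37 ± 0.212 CPM in DMBA/TPA and 0.298 ± 0.0716 CPM in Control DMBA TPA (SD, n = 2 each).

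Of 17 listed inhibitory and tumour necrosis factor family receptors, 14 were tested, of which 7 rose and 3 fell. Pdcd1, the inhibitory receptor PD-1, rose by 5.45 (SE 0.92, adjusted p = 0.00336, edgeR), with averages of 0.843 ± 0.469 CPM in DMBA/TPA and 0.0174 ± 0.0246 CPM in Control DMBA TPA (SD, n = 2 each). The inhibitory receptors Btla and Tigit rose by 4.28 and 4.04, while Cd244a, a SLAM family receptor, fell by 1.54. Of 19 listed T and NK cell transcription factors, 16 were tested, of which 4 rose and 7 fell. Runx1, which keratinocytes also express, rose by 1.53, Prdm1 rose by 0.89, and Gata3, also expressed in epidermal cells, fell by 1.18 on the log2 scale. Of 24 other cytotoxic and NK receptor genes, 10 were tested, of which 3 rose and 3 fell. Ctsw, a protease of cytotoxic lymphocytes, fell by 1.44, and Crtam, a receptor of activated cytotoxic T cells, by 2.06 on the log2 scale. Cd8b1, the beta chain of CD8, rose (adjusted p = 0.013, edgeR) and was at 0 in Control DMBA TPA, averaging 0.529 ± 0.47 CPM in DMBA/TPA (SD, n = 2). Klra4, a Ly49 family receptor, also rose, with an average of 2.14 ± 1.30 CPM in DMBA/TPA (SD, n = 2) and 0 in the other groups.

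Of 18 other T cell cytokines, 17 were in the files and 6 were tested, of which 3 rose: Areg, an EGF receptor ligand also made by keratinocytes, by 2.53, the chemokine Ccl3 by 4.61 and Ltb, lymphotoxin beta, by 1.33. Of 21 homing and survival receptors, 19 were tested, of which 6 rose and 4 fell, with Sema4d at 2.01, Jaml at 1.22, Ccr4, a skin-homing receptor, at -1.92 and Il18r1 at -1.14. Of 17 keratinocyte-side ligands, 14 were in the files and 11 were tested, of which 1 rose and 2 fell. Il15, a survival cytokine of dendritic epidermal T cells, averaged 4.40 ± 1.90 CPM in DMBA/TPA and 9.85 ± 0.456 CPM in Control DMBA TPA (SD, n = 2 each) and fell by 1.16 on the log2 scale (SE 0.28, adjusted p = 0.0122, edgeR). Tslp, a keratinocyte cytokine, rose by 2.04 (adjusted p = 0.00612, edgeR), and Ccl27a, a skin T cell chemokine, fell by 0.62 (adjusted p = 0.046, edgeR).

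Genes can be compared only roughly per merged exon length, since the merged exons of all annotated transcripts need not be the length expressed. That length was 444 bases for Trdv4 and 3865 for Trdc. On this scale the members with the highest mean level in Control DMBA TPA were Cd7 at 13.8 RPKM, Trdv4 at 10.8, Cd3e at 8.34, Nkg7 at 7.97 and Cd3g at 6.09. In DMBA/TPA the highest were Itgae at 3.43 RPKM, Gzmc at 2.88, Nkg7 at 2.12, Lat at 1.91 and Ptprcap at 1.67. Trdv4 ranked 25 of the 40 genes in DMBA/TPA at 0.265 RPKM, and 2 in Control DMBA TPA. Cd8a ranked 15 in DMBA/TPA at 0.706 RPKM, and 33 in Control DMBA TPA at 0.0171 RPKM.

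Markers of some other cells moved with these changes. The summed level of 9 listed markers of dendritic epidermal T cells, 8 of them members, was 52.3 and 51.2 CPM in DMBA/TPA, against 172.4 and 158.9 CPM in Control DMBA TPA. Most of the DMBA/TPA sum came from Ptprc, carried by all leukocytes, and Itgae. Without these genes, left out after their values were seen, it was 13.4 and 13.5 CPM in DMBA/TPA, against 86.7 and 87.2 CPM in Control DMBA TPA. Of the genes left, Cd3e, Cd7, Il2rb, Klrk1 and Xcl1 are not confined to these cells. Il2rb, Cd3e and Cd7 averaged 5.43, 4.87 and 1.33 CPM in DMBA/TPA, against 12.0, 34.0 and 15.6 CPM in Control DMBA TPA. The delta chain genes Trdv4 and Trdc averaged 0.118 and 0.746 CPM in DMBA/TPA, against 4.81 and 17.2 CPM in Control DMBA TPA. The summed level of 6 listed markers of conventional alpha beta T cells, 2 of them members, was 44.1 and 39.6 CPM in DMBA/TPA, against 29.6 and 27.3 CPM in Control DMBA TPA. Most of the alpha beta sum came from the beta constant gene Trbc2, at 30.0 ± 3.25 CPM in DMBA/TPA and 23.7 ± 1.99 CPM in Control DMBA TPA (SD, n = 2 each). Neither beta constant gene was called, while Trac, Cd4, Cd8a and Cd8b1 rose from averages of 0.176, 0.239, 0.0623 and 0 CPM in Control DMBA TPA. Fibroblast markers (8 genes) summed to 1235 and 3340 CPM in DMBA/TPA, against 153.5 and 175.5 CPM in Control DMBA TPA. This list holds Thy1, which T cells also carry and which fell by 1.04 on the log2 scale (SE 0.14, adjusted p = 0.00131, edgeR), to 55.3 ± 6.80 CPM in DMBA/TPA, against 113.5 ± 5.11 CPM in Control DMBA TPA (SD, n = 2 each). Without Thy1, left out after its values were seen, the fibroblast sum was 1175 and 3289 CPM in DMBA/TPA, against 36.4 and 65.6 CPM in Control DMBA TPA. Endothelial markers (7 genes) summed to 21.9 and 56.7 CPM in DMBA/TPA, against 0.348 and 0.852 CPM in Control DMBA TPA, and neutrophil markers (8 genes) to 13.0 and 19.2 CPM in DMBA/TPA, against 0.209 and 0.247 CPM in Control DMBA TPA. The neutrophil sum was nearly all Cxcr2, at 14.5 ± 2.98 CPM in DMBA/TPA and 0.115 ± 0.0844 CPM in Control DMBA TPA (SD, n = 2 each), while Ly6g, Camp, Ngp and Elane were at 0 in DMBA/TPA. Macrophage and monocyte markers (12 genes) summed to 96.8 and 139.2 CPM in DMBA/TPA, against 103.0 and 73.1 CPM in Control DMBA TPA, with overlapping groups, and of 10 tested 7 rose and 1 fell. Melanocyte markers (5 genes) summed to 82.5 and 58.2 CPM in DMBA/TPA, against 11.7 and 16.6 CPM in Control DMBA TPA, and all 5 rose. The melanocyte sum in Control DMBA was 35.6 and 60.8 CPM, overlapping DMBA/TPA, and 3 of the 5 genes were called lower in Control DMBA TPA than in Control DMBA. The endothelial sum in Control DMBA was 11.45 and 4.16 CPM. Of the tested genes, 5 of 8 fibroblast and 3 of 7 endothelial markers were also called lower in Control DMBA TPA than in Control DMBA, beside 4.28% of all genes. The size of the fibroblast and endothelial differences thus depended on the control. In DMBA the fibroblast sum was 153.0 and 171.9 CPM, against 1118 and 599.6 CPM in Control DMBA, and without Thy1 it was 68.1 and 81.1 CPM in DMBA, against 1018 and 475.7 CPM in Control DMBA. Langerhans cell markers (9 genes) overlapped as a sum, at 786.5 and 931.0 CPM in DMBA/TPA, against 881.1 and 711.6 CPM in Control DMBA TPA. Of these 9 genes, all tested, Mfge8, Cd1d1 and Itgax rose, by 1.18, 2.36 and 1.61, and 0 fell. Of the other lists, B cell markers had 0 of 2 tested genes called, keratinocyte markers 2 of 9 higher and 2 lower, and mast cell markers 2 of 6 higher and 1 lower. The part of dermal cells, melanocytes and myeloid cells in these changes was not tested.

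**Figure D4:**
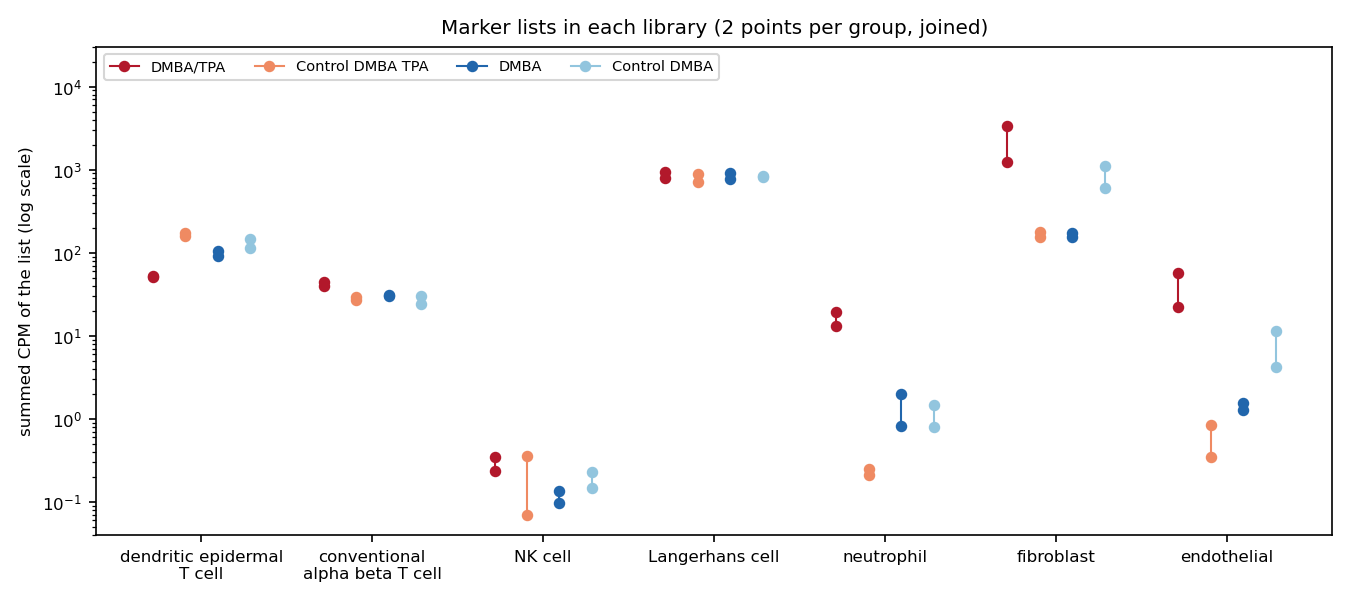
Summed CPM of 7 marker lists, on a log scale, in each library of the 4 groups, with the 2 libraries of a group joined. The dendritic epidermal T cell list lies lowest in DMBA/TPA, at 52.3 and 51.2 CPM, most of it Ptprc and Itgae, NK cell markers lie under 0.4 CPM in all libraries, and fibroblast markers reach 1235 and 3340 CPM in DMBA/TPA.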

How the data were processed

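The values are raw read counts for each Ensembl gene, with a separate file for every library, as the authors deposited them. The submitters' processing notes name the tools cutadapt, FastQC, Bowtie2 and TopHat2 and the build mm10. The sources used here do not give tool versions, the program that counted reads, the annotation it read or whether it used strand. Epidermis was separated with Dispase and rRNA-depleted directional libraries were made, per the labels' protocols. The 5 summary rows of each file were left out of library sizes, and genes held 35.24% to 43.35% of the total. Without the strand setting, members that overlap other genes are less certain.

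Of 55487 gene identifiers, 55141 (99.38%) matched GENCODE M21. After filterByExpr with a minimum count of 10 and a minimum total of 15, 19450 genes remained. They were scaled by TMM and fitted over all 8 libraries with a mean per group in edgeR 4.0.16 (R 4.3.3), with quasi-likelihood F tests and Benjamini-Hochberg adjustment over all genes tested. The SE of a change was derived as its size divided by the root of its F statistic. RPKM is CPM per kilobase of merged exons. Where a group had 0 counts, folds were bounded with a floor of 3 counts for the group. Alternatives were RLE factors, total counts, no filter, DESeq2 1.42.0, limma 3.58.1 voom, the sample number as a block, the compared groups only, other acetone controls and leaving out each library. The procedure was tested on simulated counts. Windows of 50 bases were compared over all GENCODE M21 transcripts, on both strands. Promoters are from RefSeq.

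The members and the lists were chosen with earlier results of these data known. Outside the members, up to 4 genes per list with the smallest adjusted p in the DMBA/TPA comparison were named, and Trbc1, Trbc2 and Tcrg-C2 were added, after their values were seen, to complete the chain list. A transcription factor that this rule names is not reported here. Of 244 list entries outside the members, 239 matched. No paired fit is the main one, since the labels state no pairing. Same-numbered libraries deviated with correlations of -0.152 to 0.035, which cannot exclude a weak pairing.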

Additional observations from a re-analysis of the deposited data

Results flagged for a closer look

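The DMBA/TPA change and the DMBA change differed, by the interaction contrast of edgeR over all genes, for 11 members, all lower, and nothing in this group of results was tested as to cause. On the log2 scale the genes of the receptor complex differed by -2.20 for Cd3e, -2.22 for Cd3g, -2.54 for Cd247, -4.01 for Trdc, -4.51 for Trdv4 and -3.79 for Trat1. Among the other members the difference was -2.03 for Themis, -4.45 for Prf1, -2.68 for Klrd1, -1.32 for Cd2 and -3.02 for Cd7. The calls of Cd2, Klrd1 and Themis were lost on leaving out either Control DMBA TPA library and with the other acetone group as control, and all 3 without DMBA replicate 1. Those of Cd2 and Klrd1 were also lost without either Control DMBA library, and those of Cd2 and Themis without DMBA replicate 2 or DMBA/TPA replicate 2. Without DMBA/TPA replicate 1 the difference for Trdc was -4.92, and without DMBA replicate 1 that for Klrd1 was -2.02. The regimens differ in TPA and in harvest day, which cannot be told apart.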

How the results depend on the processing

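In DMBA/TPA against Control DMBA TPA, 18 members fell and 10 rose. The count that fell was 15 to 19 and the count that rose 7 to 10 when each library was left out. The count that rose was 6 with all 4 acetone libraries as one control group and 6 with the other acetone set as control, with 23.8% and 19.4% of all genes called, against 40.7%, where Gzmc turned to -0.037. With total counts the median of all genes shifted by -0.12, and 45% of called genes were higher, against 55% with TMM. After DMBA, 661 genes in all were called with no low-count filter and 3210 with the other acetone set, against 52, and members called lower were 1 and 12. Those called higher were 4 with no filter, 1 with all 4 acetone libraries, 9 with the other acetone set, 2 with DESeq2, and 0 to 1 with a library left out. For the difference of responses, 8 to 15 were lower with a library left out. Members higher were 2 with no filter, 1 with the other acetone set and 0 to 1 with a library left out, and with the other acetone set Cd5 turned to -2.83 and Ctla4 to 2.18. DMBA/TPA against DMBA had 8 to 15 lower and 0 to 1 higher with a library left out. Between the acetone groups, members lower were 5 with no filter, 3 with DESeq2, 0 with limma voom and 0 to 2 with a library left out. Members higher were 2 with the compared groups only, 2 with DESeq2, 2 with limma voom and 0 to 3 with a library left out. With the replicate block, 0 members were higher there and 17 fell in DMBA/TPA. The crossed replicate block for the Control DMBA numbers, added after seeing the data, gave 0 lower and 0 higher. Each fit with a library left out had 1 library in that group, and the share of all genes called moved between these fits. Their counts alone therefore do not show how stable the members are. Between the acetone groups, 7.74% of all genes were called with no filter and 10.5% with the compared groups only. DESeq2 called 10.8% and limma voom 4.87%, against 6.25% in the main fit. For the difference of responses, 12.8% were called with no filter and 9.55% with the other acetone set. The causes of these changes were not tested. Levels under 1 CPM rest on few counts.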
